A study of Drosophila melanogaster with 2 samples.

Results

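The genes described here are the ribosomal protein genes of Drosophila melanogaster, taken as every protein-coding gene of the Ensembl annotation on the arms 2L, 2R, 3L, 3R, 4 and X whose symbol begins with RpL, RpS or RpLP and a digit. The rule gave 92 of 13945 protein-coding genes, of which 38 carry a small-subunit symbol (RpS) and 54 a large-subunit symbol (RpL or RpLP). Their promoters were examined for the binding of Sage, a transcription factor of the bHLH (basic helix-loop-helix) class whose known role lies in the larval salivary gland. The chromatin came from whole wandering larvae of the third instar, both sexes pooled, of a stable transgenic line (sage-GFP) that expresses Sage joined to GFP at its C-terminus, and an anti-GFP antibody was used for immunoprecipitation after sonication. Biological replicates 3 and 4 formed 1 group of 2 samples with no second genotype or treatment, and peak lists were used, with no reads, so read depth is unknown. Whole larvae mix all tissues, and the lists hold no measure from which the tissue of a peak can be read.

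Each ribosome holds a single copy of nearly every ribosomal protein, so growing tissues transcribe these genes at high and balanced rates. In flies most of their promoters start transcription at a TCT initiator, a pyrimidine-rich element at the start site, in place of the usual initiator, and the promoters often carry elements of housekeeping genes such as the DRE (TATCGATA) and Motif 1. bHLH factors bind as dimers to E-boxes, short sites that read CANNTG.

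A gene was called bound when the summit of a peak from the list that passed the submitters' irreproducible discovery rate threshold (IDR, a measure of how alike regions rank in replicates) lay within 1 kb of any of its annotated transcription start sites (TSSs). By this rule 31 of the 92 genes were bound (33.7%), beside 14.4% of all 13945 protein-coding genes. The stretches at the summits of 8 of the 9 bound members with the highest signal are given first (RpLP0-like is not shown), on the strand of the gene. The position of E-boxes against the summit and the start site recurs in the results. Each stretch runs from up to 50 bp before the summit to 15 bp past the member's TSS nearest to it. In RpL7 it runs to the end of the E-box beside the summit. In RpS28b it covers 50 bp on either side of the summit and does not reach the RpS28b promoter. That summit lies 755 bp upstream of RpS28b and 118 bp upstream of another gene, l(1)G0320. Coordinates are dm6 and the letters come from the RefSeq Release 6 genome. Capitals mark E-boxes, the DRE, its CGATA core in either direction, the Motif 1 core (GGTCACAC in either direction) and a TCT core at the TSS.
RpL32, chr3R:30046146-30046384, strand -: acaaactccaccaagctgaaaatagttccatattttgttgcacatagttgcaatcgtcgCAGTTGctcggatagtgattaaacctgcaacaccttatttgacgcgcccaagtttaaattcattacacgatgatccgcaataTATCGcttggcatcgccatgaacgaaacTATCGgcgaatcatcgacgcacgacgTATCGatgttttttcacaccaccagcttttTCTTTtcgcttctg
RpL7, chr2L:10200969-10201027, strand +: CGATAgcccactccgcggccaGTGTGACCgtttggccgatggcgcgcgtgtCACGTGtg
RpL24, chr2L:13395116-13395227, strand -: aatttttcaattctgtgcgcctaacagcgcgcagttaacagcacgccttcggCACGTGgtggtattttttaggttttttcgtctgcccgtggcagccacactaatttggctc
RpL27, chr3R:25685036-25685196, strand -: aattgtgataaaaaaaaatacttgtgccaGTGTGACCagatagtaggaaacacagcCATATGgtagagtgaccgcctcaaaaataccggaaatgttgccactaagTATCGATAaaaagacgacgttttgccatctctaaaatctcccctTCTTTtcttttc
RpS28b, chrX:9553818-9553918, strand +: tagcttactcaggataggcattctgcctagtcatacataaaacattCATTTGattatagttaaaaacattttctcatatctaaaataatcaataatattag
RpL37A, chr2L:5070896-5070972, strand +: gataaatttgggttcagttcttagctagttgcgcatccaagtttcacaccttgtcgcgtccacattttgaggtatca
RpL34a, chr3R:26059252-26059433, strand -: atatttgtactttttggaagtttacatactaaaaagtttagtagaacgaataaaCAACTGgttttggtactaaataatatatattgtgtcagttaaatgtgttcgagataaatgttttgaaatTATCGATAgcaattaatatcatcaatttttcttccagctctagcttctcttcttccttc
RpS27, chr3R:25247499-25247630, strand -: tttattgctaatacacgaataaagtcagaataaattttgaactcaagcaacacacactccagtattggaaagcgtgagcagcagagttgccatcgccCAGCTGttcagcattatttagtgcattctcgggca

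The summit of the RpL24 peak lay 46 bp upstream of the nearer of its 2 start sites, and the letters CACGTG began 2 bp past that summit. In RpL27 the letters CATATG began 6 bp past the summit, followed by a DRE 40 bp before the TSS and by a TCT core at the TSS, while a Motif 1 core stood 21 bp before the summit. In RpL7 the summit lay 1 bp upstream of the TSS, with a Motif 1 core starting 13 bp before it and CACGTG starting 17 bp after it. The E-boxes of RpL32 (CAGTTG) and RpL34a (CAACTG) began 9 and 4 bp past the summit, and that of RpS28b (CATTTG) began 4 bp before it. RpL37A had no E-box within 50 bp of its summit, and the E-box of RpS27 began 47 bp past it. The TCT cores of RpL7, RpL24, RpL37A and RpS27 belong to a second annotated start site farther downstream, which the printed letters do not reach.

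The 4 strongest peaks were counted for large-subunit genes, which are 54 of the 92 members. Of these peaks, that of RpL32 had its summit nearer to a neighbour, CG7943 (136 bp), than to RpL32 (173 bp). The signal of a region is the authors' own value from their peak caller, its scale is unknown, and each list has its own scale, so the rank within a list (1 for the strongest of about 30000 regions) is given for each replicate. RpL32, which encodes a large-subunit protein and is widely used as a reference gene in expression assays, had an IDR signal of 270.0, with rank 220 in replicate 3 and 575 in replicate 4. RpL7 had a signal of 267 with ranks 388 and 380, RpL24 a signal of 257 with ranks 394 and 487, and RpL27 a signal of 241 with ranks 469 and 596. All of these 4 genes thus lay among the strongest 1000 regions of both replicates, and no ribosomal protein gene reached the strongest 250 regions of the pooled list or of replicate 4.

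The next 6 members had weaker signals. RpS28b had the strongest peak counted for a small-subunit gene, with a signal of 213 and ranks of 565 and 967. RpL37A had a signal of 180.0 with ranks 1332 and 1001, and RpL34a a signal of 177 with ranks 869 and 1125. RpLP0-like, a gene related to the stalk protein gene RpLP0, had a signal of 171 with ranks 630 and 1969. RpS27 had a signal of 163 with ranks 496 and 1892, and RpL34b a signal of 161 with ranks 1386 and 1338, and another region of replicate 4 within 1 kb of RpL34b ranked 578. Only 2 of these 6 genes, RpS28b and RpS27, belong to the small subunit, which holds 38 of the 92 members. In RpS28b, RpL34a, RpLP0-like and RpL34b a neighbour's start site was nearer to the summit, as described below.

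The other 21 bound genes had signals between 99.2 (RpL23A) and 139 (RpS21). The small-subunit members among them included RpS21, RpS27A (123), which encodes ubiquitin joined to a ribosomal protein, RpS12 (120.3), known for its part in the competition of slow-growing cells, RpS4 (119.6), RpS14b (113), RpS19a (108), RpS14a (102) and RpS6 (100.1), the target of S6 kinase. The large-subunit members were RpL39 (132), RpL8 (131), RpL4 (127), RpL41 (127), RpL17 (120.4), RpL30 (118), RpL10Ab (111), RpL7A (107), RpL5 (101), which binds 5S rRNA, and RpL23A, together with the stalk genes RpLP2 (115) and RpLP0 (103), whose products recruit the translation GTPases. Over all 31 bound genes the median signal was 123 and the median rank 2000, beside a signal of 142 and a rank of 1502 for the 1979 other bound genes. In replicate 3 the peaks of the bound members had a median rank of 1412, beside 1410 for other bound genes. In replicate 4 it was 1969, beside 1744. The replicate 3 median leaves out 3 bound members with no overlapping region there (9.68%, beside 2.78% of other bound genes). The strongest 3312 regions of replicate 3 held the peaks of 64.5% of bound members, beside 80.6% of other bound genes. In replicate 4 the shares were 80.6% and 77.2%. The medians thus placed the lower position in replicate 4 and these shares placed it in replicate 3.

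The excess over the background depended on how far down the lists were read. With the stronger 1646 of the IDR peaks, 11 members were bound (12%), beside 7.87% of all genes, and the small subunit held 3 of its 38 (7.89%). In the pooled list the share of ribosomal protein genes with a summit within 1 kb was 0% at the strongest 250 regions (all genes 1.37%), 8.7% at 1000 (all genes 4.88%), 41.3% at 5000 (all genes 19.3%) and 59.8% when any pooled region was counted (55 genes, beside 43.5%). With any region of replicate 3, 57 members had a summit (62%, beside 47.5%), and with any region of replicate 4, 74 had one (80.4%, beside 47.1%). As no replicated groups exist here, shares stand beside their background without a test.

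**Figure D1:**
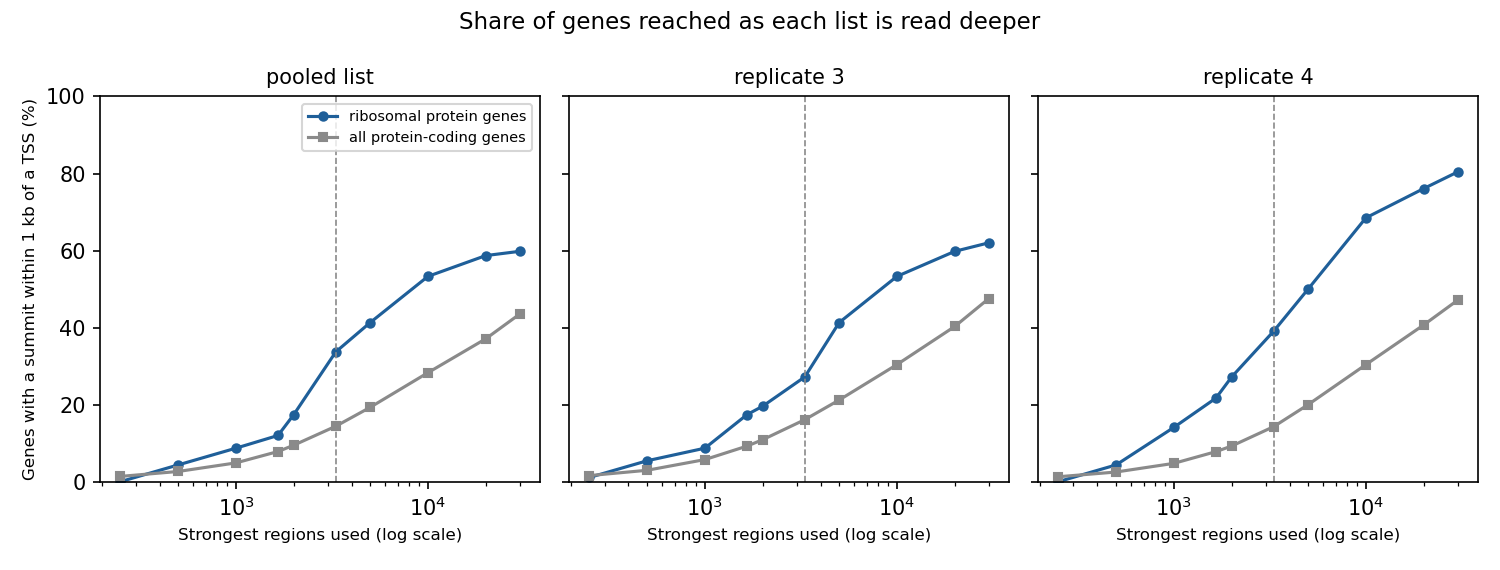
Share of genes with a summit within 1 kb of a TSS (y axis, percent) against the number of strongest regions used (x axis, log scale) in the pooled list, replicate 3 and replicate 4; blue circles are the 92 ribosomal protein genes, grey squares all 13945 protein-coding genes, and the dashed line is at 3312 regions, the size of the IDR list. The curves start together at 250 regions, lie farthest apart at 10000 and are somewhat closer again at 30000. They separate most in replicate 4, with 68.5% and 30.4% at 10000 regions and 80.4% and 47.1% at 30000.

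The choice of distance changed the count less. Within 500 bp of a TSS 27 members were bound (29.3%, beside 12% of all genes), and within 2 kb 35 were (38%, beside 17.7%). With the annotated 5′ end of each gene as the only start site, 30 were bound (32.6%, beside 12.8%), and when each summit was given to its nearest gene alone, 23 were (25%, beside 11.1%). The bound members nearest to the 1 kb limit were RpL34b (summit 927 bp downstream of the nearest TSS), RpS28b (755 bp upstream) and RpL39 (720 bp upstream). The unbound members with an IDR summit nearest to the limit were RpS13 (1312 bp), RpL13A (1319 bp) and RpS23 (1596 bp).

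By role, 20 of 54 large-subunit genes (37%) and 11 of 38 small-subunit genes (28.9%) were bound, beside 14.4% of all genes. Of the 3 stalk genes, RpLP0 and RpLP2 were bound and RpLP1 had no region within 1 kb in any list. Of the ribosome's proteins with other symbols, the scaffold gene Rack1 was bound (signal 174, summit 6 bp past a TSS) and sta was not. Grouped by symbol alone, with each -like gene put with its namesake, proteins with 1 gene had 20 of 65 genes bound (30.8%). Those with 2 or more genes had 11 of 27 (40.7%). The order turned round by nearest gene alone, at 26.2% and 22.2% (all genes 11.1%). It also did so without replicate 3, at 41.5% and 33.3% (all genes 14.3%). The direction was kept at the other distances, with the 5′ end only, with the stronger peaks and without replicate 4.

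Genes grouped by a shared symbol often differed, though a shared symbol does not show that they encode the same protein. RpL7 and RpL24 were among the strongest, while RpL7-like had only a weak region in replicate 4 (rank 5818) and RpL24-like had none in any list. RpL10Ab was bound and RpL10Aa was not. RpS28b was bound, RpS28-like had a pooled signal of 38.8 and RpS28a had no region. Both RpS14a and RpS14b, a tandem pair on X, were bound, as were both RpL34a and RpL34b. RpS19a was bound, whereas RpS19b had a region in replicate 4 alone, described below. RpS5a and RpS5b had pooled signals of 79.7 and 80, below the lowest IDR signal of 95.7. Where such genes share sequence, reads may match both, and the sources used here do not say how those reads were handled.

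The summits sat just upstream of the start sites. In 29 of 31 bound members (93.5%) the summit nearest to a TSS lay upstream of it, beside 81.6% of the 1979 other bound genes. The median distance was 66 bp, beside 174 bp for the other bound genes. In 19 members (61.3%) it lay 1 to 100 bp upstream, beside 21.5% of other bound genes, and in no member did it lie at the TSS or in the 100 bp after it, beside 6.82%. The 2 members with a summit downstream were RpL5 (173 bp) and RpL34b (927 bp). In each replicate's 3312 strongest regions the median was also below that of other genes, at 61 bp in replicate 3 (other genes 182 bp) and 72.5 bp in replicate 4 (other genes 166 bp). In replicate 4, however, 2 of 36 members had the summit at the TSS or in the 100 bp after it (5.56%, beside 6.62%), and in replicate 3 none of 25 did (beside 6.2%). The summits of the overlapping regions in the replicates lay a median of 28.5 bp apart (31 bp for other bound genes).

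**Figure D2:**
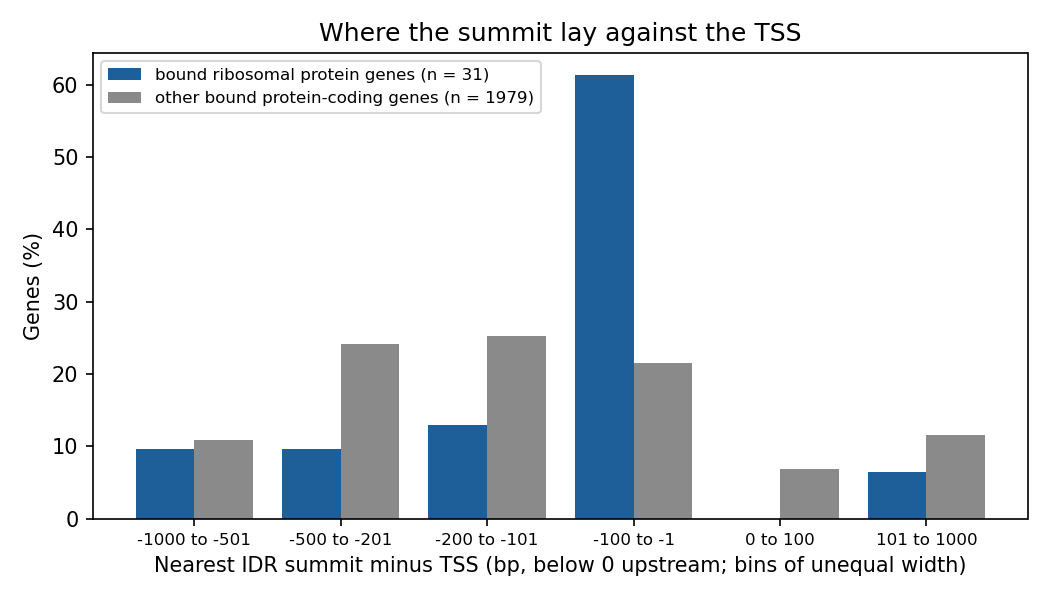
Share of genes (y axis, percent) by the position of the nearest IDR summit against the TSS (x axis, bp, negative upstream, bins of unequal width); blue bars are the 31 bound ribosomal protein genes and grey bars the 1979 other bound genes. The bin from 100 to 1 bp upstream holds 61.3% of the ribosomal protein genes and 21.5% of the others.

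The TCT element gave a second reference point. A TCT core (TCTTT or CCTTT on the strand of the gene, within 10 bp of any TSS) was present at 68 of the 92 members (73.9%), beside 700 of all 13945 genes (5.02%). With the 5′ end of the gene as the only start site it was present at 43.5% of members, beside 3.43% of all genes. More than 1 TSS is annotated for 47.8% of members and 26.5% of all genes, which gives the members more windows to search. It stood at 26 of the 31 bound members (83.9%) and at 42 of the 61 others (68.9%). Seen the other way, 26 of the 68 members with the core were bound (38.2%) and 5 of the 24 without it (20.8%). Among genes outside the family 134 of 632 with the core were bound (21.2%) and 14% of those without it. Measured from the start site with the core, the summit lay upstream in 24 of 26 genes, at a median distance of 96 bp, and within 200 bp upstream in 19. Examples were RpS6 (19 bp), RpL41 (23 bp), RpL10Ab (25 bp), RpL24 (85 bp), RpL8 and RpL27 (95 bp each) and RpL7 (97 bp).

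Many of these promoters lie close to another gene. Another protein-coding TSS stood within 1 kb in 58 members (63%), beside 42.9% of all genes. Of these 58, 23 were bound (39.7%), and of the 34 with no such neighbour 8 were bound (23.5%). Over all genes the same shares were 19.7% and 10.4%. In 21 of the 31 bound members (67.7%, beside 54.7% of other bound genes) the same summit lay within 1 kb of another protein-coding gene, and in 16 (51.6%, beside 37.9%) it lay upstream of both genes of a head-to-head pair. To which gene of a pair a peak belongs cannot be told apart in these lists.

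In 8 bound members a neighbour's start site was nearer than the member's own at every summit. The RpL32 summit lay 173 bp upstream of RpL32 and 136 bp upstream of the uncharacterised gene CG7943. That of RpL34a lay 116 bp upstream of RpL34a and 113 bp upstream of Trmt61, which encodes a tRNA methyltransferase subunit, and a second one lay 51 bp upstream of PIG-P and Tcs6. The summit counted for RpS28b lay 118 bp upstream of l(1)G0320, that for RpL34b 40 bp upstream of CG34117, and that for RpS21 104 bp upstream of CG3104. RpL39 (Rap2l, 100 bp), RpS14a (Dhdds, 79 bp) and RpLP0-like (14-3-3zeta, 518 bp) had summits downstream of the neighbour's start site.

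In the other members with a shared summit the ribosomal protein gene was the nearer one or, in RpS27A, as near. The RpL7 summit lay 1 bp from RpL7 and 29 bp upstream of Ripalpha. The RpS27 summit lay 66 bp upstream of RpS27 and 78 bp upstream of the nucleoporin gene Nup37. RpL41 (23 bp) shared its summit with the sodium channel gene NaCP60E (159 bp). RpS6 (19 bp) shared one with bys (530 bp), whose product acts in the assembly of the small subunit. The summit of RpS27A lay 89 bp upstream of both RpS27A and Ip259, on the same strand. RpL24, RpL27, RpS4, RpL5, RpL17, RpL23A, RpL30, RpL37A, RpLP2 and RpS14b shared their summits with no other protein-coding gene. snoRNA genes lie inside 28 members, and 10 of these were bound (35.7%), beside 32.8% of the other members. Over all protein-coding genes 30 of 84 with such a snoRNA gene were bound, the same share of 35.7%, and 14.3% of those without.

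At the summits themselves, the 33 distinct IDR summits of bound members were set beside 1746 summits within 1 kb of other genes only, counting a motif on both strands within 50 bp of the summit. An E-box (CANNTG, which includes the classes below) was present at 17 of the 33 summits (51.5%), beside 35.3%. CACGTG was present at 2 (6.06%, beside 0.974%), CAGCTG at 5 (15.2%, beside 5.78%) and CATATG at 1 (3.03%, beside 3.38%). The DRE was present at 2 (6.06%, beside 2.58%), CGATA, the core shared with the DRE and bound by BEAF-32, at 10 (30.3%, beside 19%), and the Motif 1 core at 3 (9.09%, beside 1.15%). In a wider window, mostly upstream of each gene's 5′ end, the last 3 elements were about as common in unbound as in bound members. The DRE stood at 32.8% of unbound and 25.8% of bound members (all genes 9.37%). CGATA stood at 73.8% and 71% (all genes 47.5%), and the Motif 1 core at 14.8% and 16.1% (all genes 7.71%). E-boxes in that window were less common in unbound members, at 68.9% and 80.6% (all genes 77.3%). For CACGTG the shares were 6.56% and 16.1% (all genes 4.24%), for CAGCTG 4.92% and 19.4% (all genes 17.7%). For CATATG they were 3.28% and 6.45% (all genes 7.83%). GAGAG was present within 50 bp of 4 of the 33 summits (12.1%, beside 17.9%), and the TCT letters (TCTTT or CCTTT) on either strand at 11 (33.3%, beside 43.2%). The mean GC content within 50 bp was 40.7%, beside 35.1%, but over the whole peak it was 36.9%, beside 37.3%. The share with an E-box was not alike in the replicates, since in the strongest 3312 regions of replicate 3 it was 54.8% (other promoters 34.4%) and in those of replicate 4 it was 34.2% (other promoters 37.6%). CAGCTG likewise was present at 16.1% of summits in replicate 3 (other promoters 5.94%) and at 5.26% in replicate 4 (other promoters 6.63%).

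In a window chosen after the data were seen, 15 bp on either side, 9 of the 33 summits held a whole E-box (27.3%), beside 10.3% of other promoter summits. These were the summits of RpL32, RpL24, RpL27, RpS28b, RpS21, RpL39 and RpL4 and both summits of RpL34a. Among the stronger 1646 IDR peaks 7 of 12 ribosomal protein summits had one (58.3%, beside 10% of 889), and among the weaker peaks 2 of 21 did (9.52%, beside 10.6% of 857). In replicate 3 alone the share was 22.6% (other promoters 9.42%), and in replicate 4 alone 15.8% (other promoters 11.4%). In 6 of the 9 summits a neighbouring gene's start site was nearer than that of the member, as it was in 3 of the 24 summits without an E-box this close. With 12 summits in the stronger class, each one moves the share by several percentage points.

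**Figure D3:**
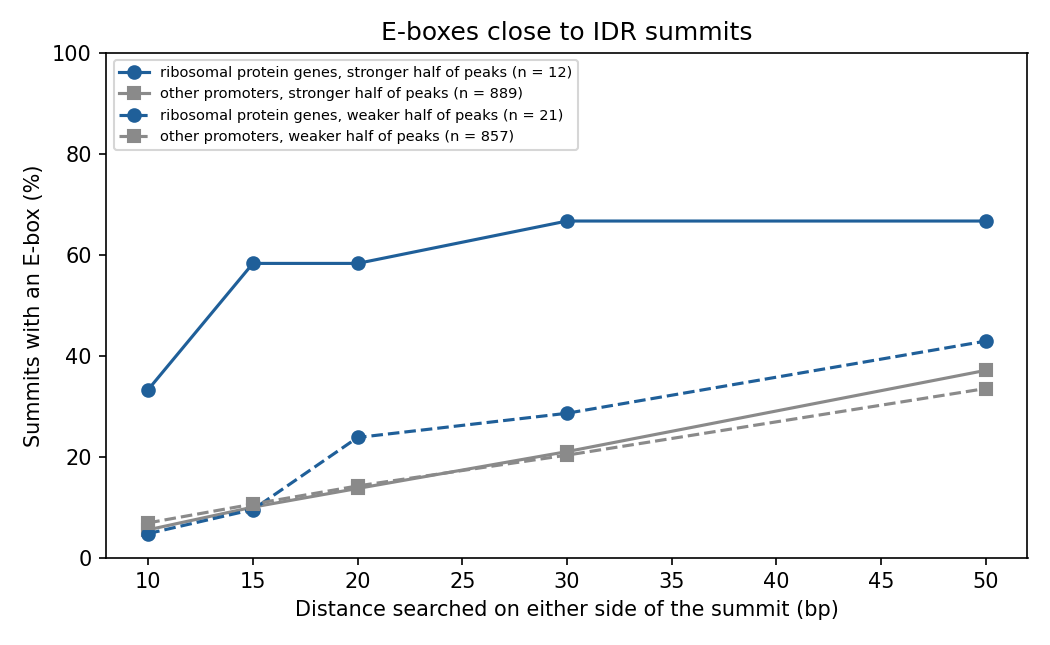
Share of summits with a whole E-box (y axis, percent) against the distance searched on either side of the summit (x axis, bp); blue circles are summits of ribosomal protein genes, grey squares other promoter summits, solid lines the stronger and dashed lines the weaker IDR peaks. At 15 bp the 12 stronger ribosomal protein summits stand at 58.3% and the 889 stronger other summits at 10%.

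The replicates were not alike for these genes. Among the 3312 strongest regions of replicate 3, 25 members had a summit within 1 kb (27.2%, beside 16.1% of all genes), and among those of replicate 4, 36 had one (39.1%, beside 14.3%). There were 15 members in both sets, 10 in replicate 3 alone, 21 in replicate 4 alone and 46 in neither. The 15 shared members were 60% of the replicate 3 set and 41.7% of the replicate 4 set, while over all protein-coding genes the shared genes were 59.8% and 67.3%. All 15 shared members were bound by the IDR rule, as were 6 of the 10 and 10 of the 21.

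Several IDR peaks rested mostly on 1 replicate. The RpL30 peak ranked 1064 in replicate 4 and 10240 in replicate 3, and that of RpL8 ranked 978 and 6771. The RpL41 and RpL23A peaks ranked 1305 and 2929 in replicate 4 and overlapped no region of replicate 3. The reverse held for RpS14b, which ranked 1009 in replicate 3 and 9859 in replicate 4. Of the 31 bound members 14 had their peak among the strongest 3312 regions of both replicates (45.2%), beside 61.2% of other bound genes.

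A further set stood high in replicate 4 and was absent elsewhere. Among them were RpS19b (rank 325), RpL13A (448), RpL19 (567), RpL3 (689), RpL14 (695), RpL11 (885), RpL13 (1018) and RpS25 (2797). The product of RpL11 binds 5S rRNA together with RpL5. None of the genes listed had a region within 1 kb in replicate 3 or in the pooled list. In all, 9 of the 36 members in the replicate 4 set were of this kind (25%), beside 7.3% of all 2000 genes in that set. Their summits lay close to the start site as well, at 3 bp upstream in RpL3 and RpL13, 48 bp in RpL13A, 53 bp in RpL19, 93 bp in RpL14 and 123 bp in RpL11, and farthest in RpS19b at 885 bp. In replicate 3 the counterpart was RpL36 (rank 2185) and RpS18 (rank 2252), 2 of 25 members (8%, beside 7.46%). Of replicate 4's strongest regions on the arms, 5.7% overlapped no pooled region. Why a region of a replicate is not in the pooled list was not tested.

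**Figure D4:**
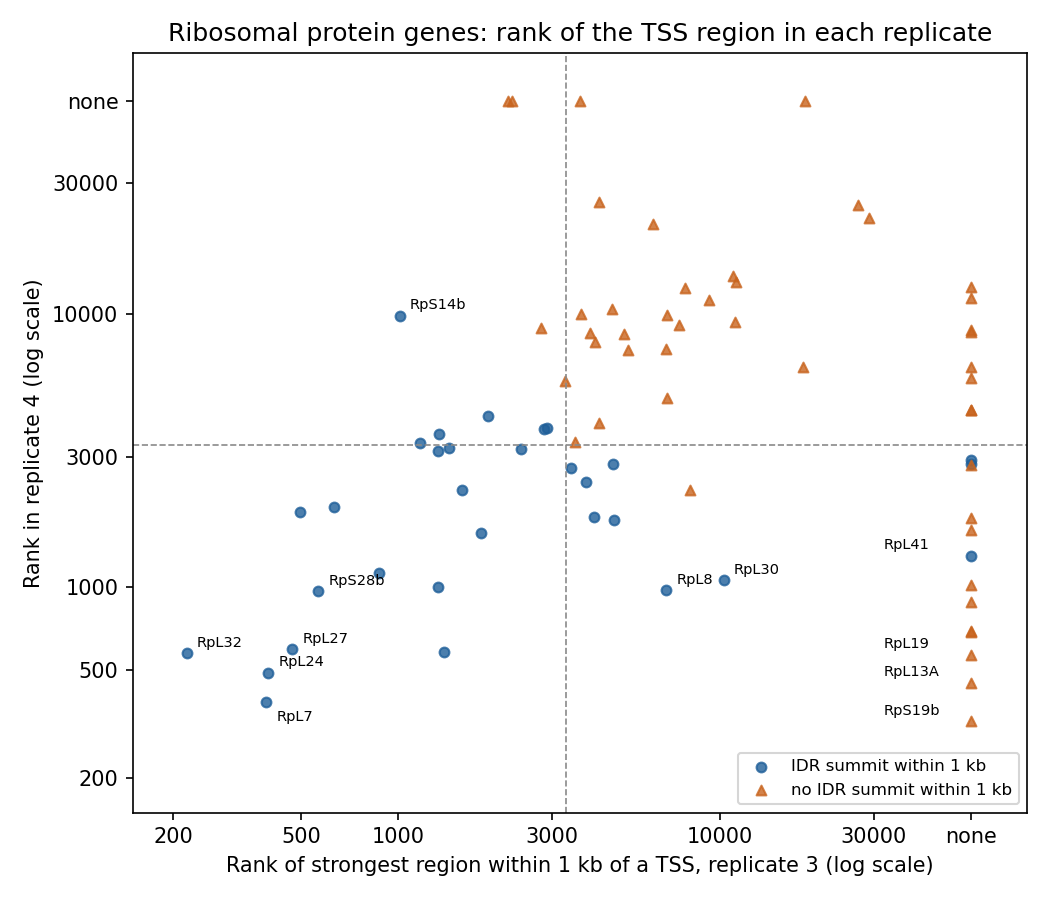
Rank of the strongest region within 1 kb of a TSS in replicate 3 (x axis, log scale) and replicate 4 (y axis, log scale) for the ribosomal protein genes with a region in either list, 1 being the strongest; blue circles are genes with an IDR summit, orange triangles genes without, "none" marks a list without a region, and dashed lines are at rank 3312. RpL32, RpL7, RpL24 and RpL27 lie in the lower left corner, and 9 unbound genes, among them RpS19b, RpL13A and RpL19, lie below the dashed line at the right edge with no pooled or replicate 3 region; RpL23 and bound genes such as RpL41 and RpL23A lie near them.

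Of the 61 members without an IDR summit, 24 had a weaker pooled region within 1 kb, and 14 had no region in any list. The same counts were not made for all unbound genes. With bound genes included, 59.8% of members and 43.5% of all genes had a pooled region within 1 kb. The highest pooled signals among the 61 were those of RpS30 (94.3, summit 9 bp past the TSS), RpS10b (88.7), RpL6 (85.9), RpL15 (82.3) and RpL26 (80.7). RpS30, whose product is made as a fusion with a ubiquitin-like protein, ranked 3532 in replicate 3 and 3391 in replicate 4 and so fell just short in both. The 14 with no region included RpL10Aa, RpL24-like, RpL27A, RpL31, RpL35A, RpL36A, RpL37-2, RpLP1, RpS10a, RpS15Ab, RpS16, RpS28a and RpS29.

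The bound share also differed between chromosome arms, with 7 of 14 members bound on 3L and on X (50%), 7 of 19 on 2L (36.8%), 6 of 23 on 3R (26.1%), 4 of 21 on 2R (19%) and RpS3A, the only member on 4, unbound. Over all genes the shares by arm ran from 12.6% on 2R to 18.8% on 4.

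Other genes of protein synthesis were read by the same rule, with 14.4% of all genes as the background. Of 73 mitochondrial ribosomal protein genes 18 were bound (24.7%), led by mRpS23 (signal 1074), mRpS10 (705) and mRpL41 (594), all above RpL32. When each summit was given to its nearest gene alone, 6 of the 73 were bound (8.22%, beside 11.1%), against 23 of 92 for the cytoplasmic genes. Of 53 translation factor genes 10 were bound (18.9%), led by eIF2Bbeta (1312), eIF6 (508) and eIF4EHP (352). Of 21 ribosome biogenesis genes 4 were bound (19%), led by NHP2 (183), Nop56 (119) and wcd (109.7), and of 19 genes of RNA polymerases I and III and their factors 3 were, Brf (283), Polr3E (195) and Polr3B (114). Of 9 genes for factors linked to ribosomal protein or housekeeping promoters 5 were bound, led by Trf2 (245), which acts at TCT promoters, BEAF-32 (151) and M1BP (124), which binds Motif 1. Some of these summits lay far from the start site, at 397 bp upstream in mRpS23, 675 bp in eIF2Bbeta and 785 bp in Nop56, and 699 bp downstream in Trf2. In the other genes named from these lists they lay from 44 bp (Polr3B) to 244 bp (M1BP) upstream.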

How the data were processed

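Peak lists on dm6 were used for each replicate, for the pooled replicates and for the regions that passed the IDR threshold. The signal of each region is the authors' deposited value, computed with a control alignment per the deposited text. The deposited summit offset gives bp from the start of a region. The aligner, the caller and the scaling were not given in the sources used here. Depth is unknown, and the control was not analysed here. The 3312 IDR regions are the strongest of the pooled list, and 3292 lie on the arms.

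Genes came from Ensembl release 115 and sequence from the RefSeq Release 6 genome, whose arm lengths hold every region. Distances, overlaps of at least 1 bp and motifs were computed with Python 3.11.15, tested on simulated data. The TCT and summit windows are given beside the results. With 1 group, genes are not replicates and no test was run. The sources used here do not say whether the replicates came from separate collections. The naming rule took all bound members (the strongest 10 in full), the strongest 5 unbound, those nearest the limit, and the top 3 of each other list. A few of the members counted are not reported here by name. Members and lists were chosen with earlier results of these data known. Alternatives were distance, start site, peak strength, nearest gene, motif window and single replicates.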

Additional observations from a re-analysis of the deposited data

How the results depend on the processing

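No paired analysis was possible because the 2 replicates form 1 group and nothing was compared between groups. Of 131 alternatives over 25 results, 99 values stayed within the limits set for each and 32 moved. These limits concern the members' own values, and some directions against the background turned round. Without replicate 3 this held for the E-box share (34.2% beside 37.6%), the CAGCTG share (5.26% beside 6.63%) and biogenesis genes (9.52% beside 14.3%), and without replicate 4 for biogenesis genes (14.3% beside 16.1%). It held for biogenesis genes with the stronger peaks (4.76% beside 7.87%), by nearest gene for mitochondrial (8.22% beside 11.1%) and RNA polymerase I and III genes (5.26% beside 11.1%), for GC content over the whole peak (36.9% beside 37.3%) and for the TCT letters at 100 bp (69.7% beside 68.6%) and over the whole peak (90.9% beside 85.6%). Using only the stronger IDR peaks gave 11 bound members (3 small-subunit and 8 large-subunit), 10 mitochondrial ribosomal protein genes, 6 translation factor genes, 1 biogenesis gene and 2 promoter factor genes, with a median distance to the TSS of 116 bp. The median distance was 95 bp within 2 kb and 77.5 bp from the 5′ end only, and 44.4% of bound members shared a summit at 500 bp. The nearest gene alone gave 6 mitochondrial and 1 RNA polymerase I and III gene, and 2 kb gave 6 of the latter. With 1 replicate left out, bound counts ranged from 25 to 36 for all members, from 2 to 3 for biogenesis genes and from 3 to 5 for RNA polymerase I and III genes, and GC content from 37.7% to 41.3%. The E-box share was 15.2% at 10 bp on either side (beside 6.19% of other promoter summits) and 27.3% at 15 bp (beside 10.3%). Both windows were chosen after seeing the data. The E-box share was 72.7% at 100 bp (beside 61.2%) and 90.9% over the whole peak (beside 80.6%). For the DRE the shares at 100 bp and over the whole peak were 21.2% (beside 4.52%) and 24.2% (beside 7.22%). For CGATA they were 54.5% (beside 31.6%) and 57.6% (beside 46.3%). For TCT letters on either strand they were 69.7% (beside 68.6%) and 90.9% (beside 85.6%). Over the whole peak the Motif 1 share was 27.3% (beside 4.81%) and the GAGAG share 30.3% (beside 48.8%). A TCT core stood at 89.1% of members within 25 bp (all genes 13.3%) and at 43.5% with the 5′ end only (all genes 3.43%). The causes were not tested.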
